A study of Mus musculus with 10 samples.

Results

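A set of 10 ETS family transcription factors of blood cells was followed across 10 arrays of mouse leukemia stem cell lines: Spi1, Spib, Erg, Fli1, Etv6, Elf1, Elf4, Ets1, Ets2 and Gabpa. They were listed by name and found through the probe annotation of the array, and every probe set of each gene was taken. This gave 10 of the 18193 annotated genes and 21 of the 45101 probe sets. ETS factors share a DNA-binding domain that contacts a GGAA core, and the bases around that core and the partners bound beside it separate the targets of the members. In blood, PU.1 (the product of Spi1) directs myeloid and B cell development and its dose sets the choice between lineages, Erg and Fli1 maintain stem and megakaryocytic cells, Etv6 is a repressor needed by adult stem cells, and Gabpa serves genes of general cell upkeep.

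The lines were established outside the animal and grown in Opti-MEM with serum and stem cell factor, and each sample's total RNA was read on its own Affymetrix Mouse Genome 430 2.0 array. The 4 groups were RH-RAS lines 1 and 3 given 1 µM SGC0946, an inhibitor of the histone H3 lysine methyltransferase Dot1l, for 4 days (2 arrays), 1 line transformed by the fusion MLL-AF9 (1 array), 3 lines transformed by the fusion NUP98-JARID1A, and 4 untreated RH-RAS lines. RH-RAS stands for DNMT3A carrying R882H expressed together with NRAS-G12D, which the treated cells carry too. The RH-RAS lines were derived independently, per the series design, and the same is not said of the NUP98-JARID1A lines, so p-values measure the spread between these samples. The sources used here name no vehicle for the untreated cells, no promoter for the oncogenes and no scan date, so a batch could not be assigned.

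Values are log2 intensities made by RMA, with array medians between 5.72 and 5.82. The number of arrays limits their precision. Levels of different probe sets are not comparable, so each single value is read only against the same probe set on other arrays. Marker sums add different probe sets, so the brightest weigh most, and each sum is read only against the same sum on other arrays. The leukocyte and progenitor markers Ptprc, Kit, Cd34 and Itgam lay above the array median on all 10 arrays. Summed linear intensities of 6 macrophage markers were 27692.1 and 29119.0 in SGC0946-treated lines, 8423.7 in MLL-AF9, 23999.7 to 34828.0 in NUP98-JARID1A lines and 1375.6 to 5076.8 in untreated RH-RAS lines, where line 4 had the highest sum. Summed T and NK cell markers were 223.3 and 247.6 in treated lines, 243.7 in MLL-AF9 and 207.6, 223.1 and 238.1 in NUP98-JARID1A lines. Untreated lines 1 to 4 gave 1668.1, 1895.4, 1607.8 and 448.4. Each of the 7 neutrophil markers was below the array median in treated and untreated RH-RAS cells. Their sum was 210.6 and 208.7 in treated lines, 33493.7 in MLL-AF9 and 16872.5 to 81759.7 in NUP98-JARID1A lines, against 186.7 to 209.9 in untreated RH-RAS lines. These cultures were read in bulk, so fewer cells of a type and less RNA per cell cannot be told apart.

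SGC0946 raised 1 of the 9 members that could be tested, Spi1, and lowered 0. Of 11992 genes tested by limma, 12.0% passed the adjusted p threshold of 0.05, 6.84% higher and 5.13% lower. A member count of 1 in 9 is near that background. At an unadjusted p under 0.05, 1 member was higher and 1 lower. Among single probe sets the same limma fit called 1 of 18 members, again Spi1, where 9.70% of 21679 probe sets passed, 5.18% higher and 4.52% lower. NUP98-JARID1A lines differed from untreated RH-RAS lines in 7 of 9 members, 4 higher and 3 lower, where limma called 51.0% of all genes, 32.5% higher and 18.5% lower. The share of members was above that background, over 9 genes. By probe set, 13 of 18 were called, 8 higher and 5 lower, where 52.1% of all probe sets passed, 27.4% higher and 24.7% lower. Among the 8 higher are 2 Ets1 probe sets that passed the filter on low values only through the fusion lines. The MLL-AF9 array stood apart in 2 of 9 members, Spi1 and Erg, both higher, by the rule of at least 1 on the log2 scale and outside the range of the 4 untreated lines. By that rule 13.0% of all genes stood apart, 7.21% higher and 5.78% lower. Both the SGC0946 and the NUP98-JARID1A comparison use untreated RH-RAS arrays, so their values are given side by side and no overlap is drawn from them.

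**Figure D1:**
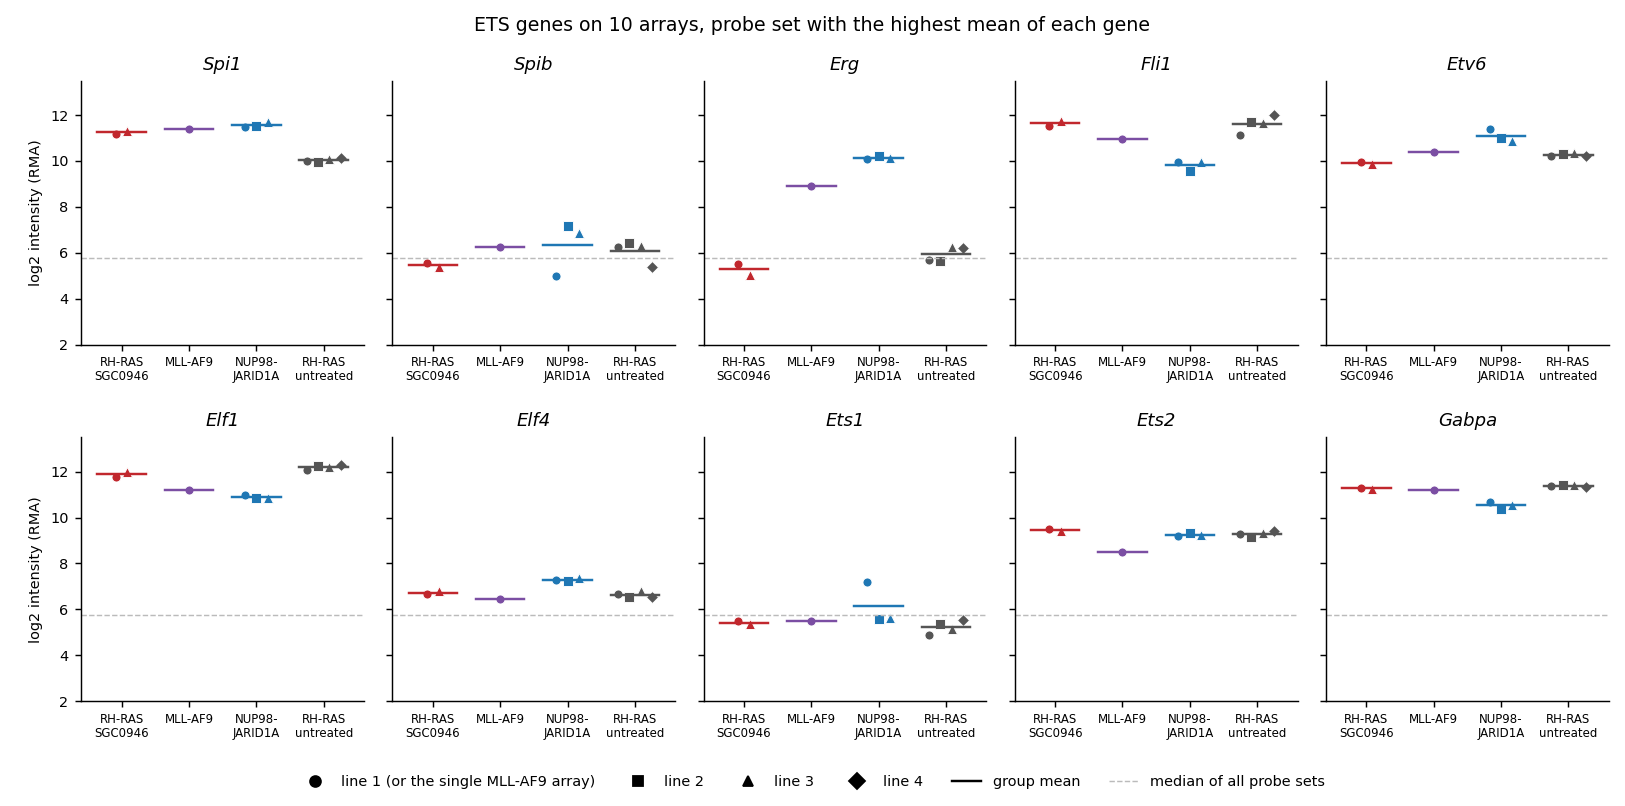
RMA log2 intensity (vertical axis) of the probe set with the highest mean of each of the 10 genes, by group from left to right: SGC0946-treated RH-RAS, MLL-AF9, NUP98-JARID1A and untreated RH-RAS. Symbols are arrays, bars are group means and the dashed line is the median of all probe sets; Spi1 lies between 11.19 and 11.72 on the treated, MLL-AF9 and NUP98-JARID1A arrays and between 9.94 and 10.12 on the untreated ones.

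Spi1, which encodes PU.1, was higher in treated RH-RAS, MLL-AF9 and NUP98-JARID1A lines than in untreated RH-RAS lines. Its only probe set, 1418747_at, read 11.19 and 11.31 on the SGC0946-treated arrays of lines 1 and 3, 11.38 on the MLL-AF9 array and 11.49, 11.54 and 11.72 on the NUP98-JARID1A arrays, against 9.99, 9.94, 10.09 and 10.12 on the untreated RH-RAS arrays of lines 1 to 4. The untreated arrays lay below all others with no overlap. SGC0946 raised Spi1 by 1.21 ± 0.12 on the log2 scale (SE), or 2.31-fold (limma, adjusted p = 0.0035), and the changes were 1.20 in line 1 and 1.21 in line 3. Without the treated array of line 3 the change was 1.15, and without that of line 1 it was 1.27, with an SE of 0.16 in both fits. The call was lost in the first fit and held in the second, so it lies near the threshold when 1 treated array is left. NUP98-JARID1A lines averaged 11.58 ± 0.12 and untreated RH-RAS lines 10.04 ± 0.08 (SD, n = 3 and n = 4), a difference of 1.55 (limma, adjusted p = 2.53e-05), or 2.92-fold. MLL-AF9 lay 1.34 above the untreated mean and 0.20 below the NUP98-JARID1A mean. From high to low the groups ran NUP98-JARID1A, MLL-AF9, treated RH-RAS and untreated RH-RAS, with no overlap. MLL-AF9 is 1 array, so the small steps on either side of it have no test. Summed macrophage markers, given above, were also lowest in untreated lines. Each of these markers exceeded all untreated readings on treated arrays, and Lyz2, Csf1r and Adgre1 did so in the fusion lines too. On MLL-AF9, Cd68 (7.9954) and Mrc1 (3.92) lay below every untreated reading (8.74 to 9.63 and 4.50 to 5.68). Mrc1 read 4.16 in NUP98-JARID1A lines 1 and 2, also below. Cd14 on these 2 arrays and MLL-AF9 lay below untreated line 4. The sum thus does not stand for each marker. T and NK cell sums, through Gzma and Cd3g, were lower in treated, MLL-AF9 and NUP98-JARID1A lines than in untreated lines. The part of the macrophage and the T and NK cell sums in the Spi1 values was not tested. MLL-AF9 had a higher Spi1 reading than the treated lines and a lower macrophage sum.

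Spib encodes Spi-B, a close relative of PU.1 that acts in B cells and plasmacytoid dendritic cells. Its probe set 1460407_at read 5.56 and 5.39 on treated arrays, 6.27 on MLL-AF9, 5.0, 7.16 and 6.88 on NUP98-JARID1A arrays and 6.25, 6.42, 6.28 and 5.38 on untreated arrays. The groups overlap, with NUP98-JARID1A line 1 and untreated line 4 low within their groups. SGC0946 gave a difference of −0.79 ± 0.67 (SE; limma, adjusted p = 0.527), −0.69 in line 1 and −0.89 in line 3. Untreated line 4 lies outside the contrast, and without it the SE was still 0.67. The spread also takes in the NUP98-JARID1A lines (SD 1.18). With the 6 RH-RAS arrays alone the SE was 0.31 (limma, adjusted p = 0.124). NUP98-JARID1A lines differed by 0.26 ± 0.52 (SE; limma, adjusted p = 0.707), and by 0.94 without their line 1 (limma, adjusted p = 0.036), so that array decides the call.

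Erg, a regulator of stem cells, had the largest difference of the members tested between NUP98-JARID1A and untreated RH-RAS lines. Its probe set 1440244_at read 5.52 and 5.05 on treated arrays, 8.90 on MLL-AF9, 10.08, 10.21 and 10.11 on NUP98-JARID1A arrays and 5.68, 5.66, 6.24 and 6.23 on untreated arrays. RH-RAS arrays lie near the array median with or without the drug, and the fusion lines lie far above it. NUP98-JARID1A lines exceeded untreated lines by 4.18 ± 0.17 (SE; limma, adjusted p = 6.56e-06), and MLL-AF9 exceeded them by 2.95 with no test. The fitted fold for NUP98-JARID1A, 18.1, is not an exact size, since untreated lines 1 and 2 lie below the array median and RMA gives no detection calls. The second probe set, 1425370_a_at, gave a smaller difference: 6.88, 7.25 and 6.94 in NUP98-JARID1A lines against 5.87, 5.97, 6.27 and 6.12 in untreated lines, a difference of 0.97 ± 0.13 (SE; limma, adjusted p = 0.000754), or 1.96-fold. With SGC0946 the first probe set differed by −0.68 ± 0.26 (SE; limma, adjusted p = 0.138), by −0.16 in line 1 and −1.19 in line 3. The second differed by 0.06 ± 0.17 (SE; limma, adjusted p = 0.897), by 0.28 in line 1 and −0.17 in line 3.

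Fli1, which works with Erg in stem cells and in megakaryocytes, was lower in NUP98-JARID1A lines. Summed linear intensities of 5 megakaryocyte markers were 466.2, 750.5 and 765.4 in NUP98-JARID1A lines and 592.1 in MLL-AF9, against 358.3 to 380.2 in untreated RH-RAS lines, and their part in the Erg and Fli1 values was not tested. In NUP98-JARID1A lines the higher sums lay mostly in Vwf (5.86, 7.93 and 8.32) and Pf4 (6.67, 6.99 and 6.87). Untreated lines read 3.43 to 3.83 and 4.92 to 5.14. Gp9 was slightly higher, Gp1bb overlapped, and Itga2b was lower in NUP98-JARID1A lines 1 and 3 (7.13 and 7.08 against 7.29 to 7.42). Fli1 probe set 1433512_at read 11.53 and 11.75 on treated arrays, 10.97 on MLL-AF9, 9.96, 9.58 and 9.95 on NUP98-JARID1A arrays and 11.14, 11.69, 11.65 and 12.01 on untreated arrays. NUP98-JARID1A arrays lie below all untreated ones, and MLL-AF9 lies between. The difference for NUP98-JARID1A was −1.79 ± 0.21 (SE; limma, adjusted p = 0.000407), a 3.46-fold lower level, and the second probe set, 1422024_at, read 10.92 and 10.87 on treated arrays, 10.10 on MLL-AF9, 9.29, 9.52 and 9.36 on NUP98-JARID1A arrays and 10.45, 10.37, 10.56 and 10.86 on untreated arrays. Its NUP98-JARID1A difference was −1.17. Erg and Fli1 thus differed in opposite directions between NUP98-JARID1A and untreated lines. After SGC0946, Fli1 differed by 0.25 ± 0.22 (SE; limma, adjusted p = 0.537).

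Ets1 is a lymphoid ETS factor, and it had 4 probe sets. The brightest, 1422027_a_at, lay above the array median on 1 array alone and was not tested. Probe set 1452163_at read 3.25 and 2.93 on treated arrays, 7.20 on MLL-AF9, 9.73, 4.53 and 6.85 on NUP98-JARID1A arrays and 3.41, 3.11, 3.08 and 2.92 on untreated arrays. Every RH-RAS array sits near the bottom of its range, and the 3 NUP98-JARID1A lines spread over more than 5 on the log2 scale. Probe set 1426725_s_at read 3.22 and 2.87 on treated arrays, 6.64 on MLL-AF9, 8.85, 4.48 and 6.12 on NUP98-JARID1A arrays and 3.20, 3.15, 3.13 and 2.79 on untreated arrays. For 1452163_at the difference was 3.91 ± 1.03 (SE; limma, adjusted p = 0.0145) for NUP98-JARID1A, and 3.42 ± 0.87 (SE; limma, adjusted p = 0.0127) for 1426725_s_at. Both probe sets entered the tests through the fusion lines, where alone they exceed the array median, so they had to differ and are not counted as support. The untested probe sets gave 7.18, 5.58 and 5.62 (1422027_a_at) and 6.19, 4.95 and 5.27 (1422028_a_at) in NUP98-JARID1A lines 1 to 3, against 4.87 to 5.53 and 4.69 to 4.93 in untreated lines. In all 4 probe sets line 1 was the highest of the NUP98-JARID1A lines and line 2 the lowest. Summed neutrophil markers ran in the same order, 81759.7 in line 1, 54484.2 in line 3 and 16872.5 in line 2, and their part in the Ets1 values was not tested.

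Ets2, which is phosphorylated through Ras and MAP kinase signalling, read 9.48 and 9.42 on treated arrays, 8.51 on MLL-AF9, 9.19, 9.33 and 9.24 on NUP98-JARID1A arrays and 9.27, 9.15, 9.34 and 9.43 on untreated arrays with probe set 1416268_at. Only MLL-AF9 falls outside the other groups, 0.79 below the untreated mean. NUP98-JARID1A lines differed by −0.05 ± 0.09 (SE; limma, adjusted p = 0.700) and treated lines by 0.15 ± 0.12 (SE; limma, adjusted p = 0.483). Probe set 1447685_x_at differed by −0.10 in NUP98-JARID1A lines and −0.01 with SGC0946, neither passing, and 1437809_x_at stayed between 3.20 and 3.88 on all arrays and was not tested. Erg and Ets2 are adjacent coding genes on chromosome 16, as are Fli1 and Ets1 on chromosome 9, in the RefSeq order of assembly GRCm38.p6. In NUP98-JARID1A lines Erg was higher while no difference passed for Ets2. Fli1 was lower, and of its neighbour Ets1 only the readings above are given, for the reason stated there.

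**Figure D2:**
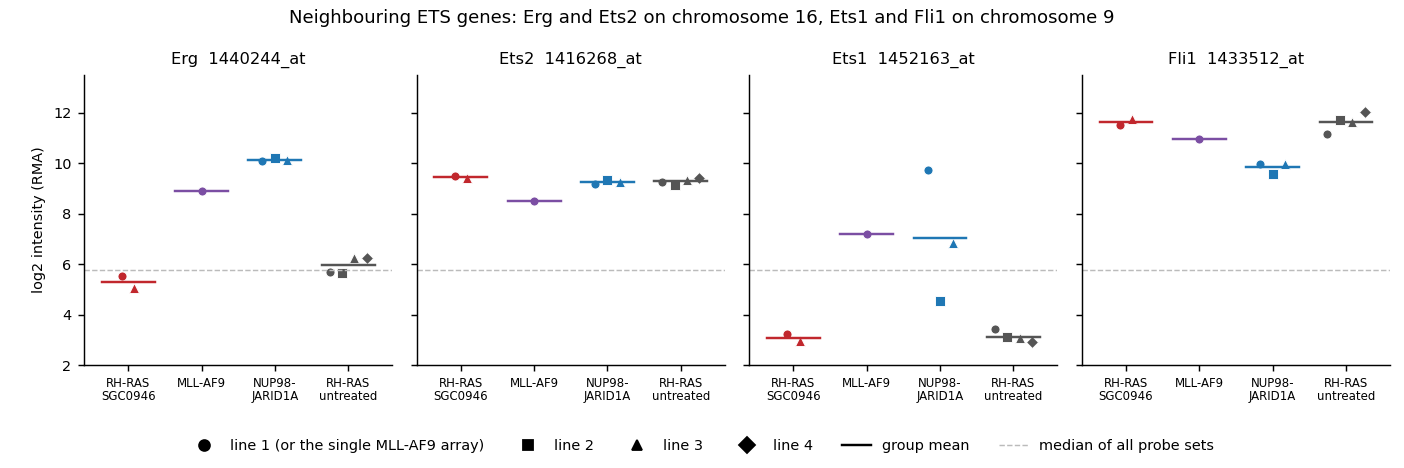
RMA log2 intensity of 1 probe set each of the adjacent pairs Erg and Ets2 (chromosome 16) and Ets1 and Fli1 (chromosome 9), by array, with SGC0946-treated, MLL-AF9, NUP98-JARID1A and untreated RH-RAS arrays from left to right. Erg reaches 10.21 in NUP98-JARID1A lines where Ets2 stays between 9.19 and 9.33, and Fli1 stays between 9.58 and 9.96 there. Ets1, shown as a description, spreads from 4.53 to 9.73.

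Etv6, a repressor, was higher in NUP98-JARID1A lines by both probe sets. Probe set 1434880_at read 9.97 and 9.87 on treated arrays, 10.37 on MLL-AF9, 11.40, 11.02 and 10.87 on NUP98-JARID1A arrays and 10.21, 10.29, 10.34 and 10.23 on untreated arrays. The NUP98-JARID1A arrays stand above the rest, and the treated arrays stand just below the untreated ones. NUP98-JARID1A lines differed by 0.83 ± 0.13 (SE; limma, adjusted p = 0.00153), and 1423401_at gave 0.87 (limma, adjusted p = 0.00156), with 9.15, 9.42 and 8.88 in NUP98-JARID1A lines against 8.31, 8.19, 8.18 and 8.44 in untreated lines. After SGC0946 the difference was −0.35 ± 0.17 (SE; limma, adjusted p = 0.237), which passed only when the 6 RH-RAS arrays were fitted alone (limma, adjusted p = 0.0402).

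The 2 ELF members differed in opposite directions in NUP98-JARID1A lines. Elf1, a regulator of blood and lymphoid genes, read 11.77 and 11.99 on treated arrays, 11.21 on MLL-AF9, 11.00, 10.84 and 10.86 on NUP98-JARID1A arrays and 12.05, 12.22, 12.20 and 12.29 on untreated arrays with probe set 1417540_at. Treated arrays lie just under the untreated ones and the fusion lines lie clearly lower. The NUP98-JARID1A difference was −1.29 ± 0.09 (SE; limma, adjusted p = 4.98e-05), 2.45-fold lower, and the SGC0946 difference −0.24 ± 0.11 (SE; limma, adjusted p = 0.233). Elf4, which keeps some T cells and stem cells quiescent, read 6.66 and 6.79 on treated arrays, 6.43 on MLL-AF9, 7.27, 7.24 and 7.37 on NUP98-JARID1A arrays and 6.65, 6.53, 6.78 and 6.54 on untreated arrays with probe set 1421338_at. The NUP98-JARID1A arrays lie above all others. Elf4 was higher in NUP98-JARID1A lines by 0.67 ± 0.09 (SE; limma, adjusted p = 0.000782), or 1.59-fold, whereas its other probe set, 1421337_at, differed by 0.11 (limma, adjusted p = 0.351). Elf1's second probe set, 1439319_at, gave −0.71 ± 0.24 with SGC0946 (SE; limma, adjusted p = 0.114) and −0.51 in NUP98-JARID1A lines (limma, adjusted p = 0.0547), with untreated line 4 at 6.35, below the other untreated lines. Without line 4 the NUP98-JARID1A difference was −0.66 (limma, adjusted p = 0.00597), so that call depends on a single array. Untreated lines 2 and 4 lie outside the SGC0946 contrast and enter only its spread. Leaving out either gave the same fit, −0.71 with an SE of 0.14, because the spread between them was lost. The SGC0946 call thus depends on that spread.

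Gabpa, the DNA-binding subunit of GA-binding protein, read 11.30 and 11.25 on treated arrays, 11.18 on MLL-AF9, 10.66, 10.38 and 10.56 on NUP98-JARID1A arrays and 11.36, 11.42, 11.44 and 11.35 on untreated arrays with probe set 1450664_at. Only the NUP98-JARID1A arrays lie well below the rest. Their difference was −0.86 ± 0.09 (SE; limma, adjusted p = 0.000253), 1.81-fold lower, and 1450665_at, at 8.27, 8.06 and 8.06 in NUP98-JARID1A lines against 8.46, 8.68, 8.65 and 8.81 in untreated lines, fell by 0.53 (limma, adjusted p = 0.00518). For SGC0946 the 2 probe sets gave −0.13 and 0.31 without passing, so their signs differ.

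The single MLL-AF9 array was set beside both other groups without a test. Against the untreated RH-RAS mean, Elf1 was −0.98, Fli1 −0.65, Gabpa −0.21, Spib 0.19 and Etv6 0.10 apart on the log2 scale. Against the NUP98-JARID1A mean, Erg was −1.23, Elf4 −0.86, Ets2 −0.74 and Etv6 −0.72 apart, while Fli1 was 1.14, Gabpa 0.65 and Elf1 0.32 apart. By the probe set with the highest mean, MLL-AF9 thus lay between NUP98-JARID1A and untreated RH-RAS lines in Spi1 (given above), Erg, Fli1, Elf1, Gabpa and Etv6. It lay below both groups in Elf4 and Ets2. The second probe sets of Erg and Elf1 placed it elsewhere, within the NUP98-JARID1A range: Erg 1425370_a_at read 7.04 against a NUP98-JARID1A mean of 7.02, and Elf1 1439319_at 6.26 against 6.32. The second probe set of Gabpa, 1450665_at, read 8.55 on MLL-AF9, within the untreated range of 8.46 to 8.81.

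**Figure D3:**
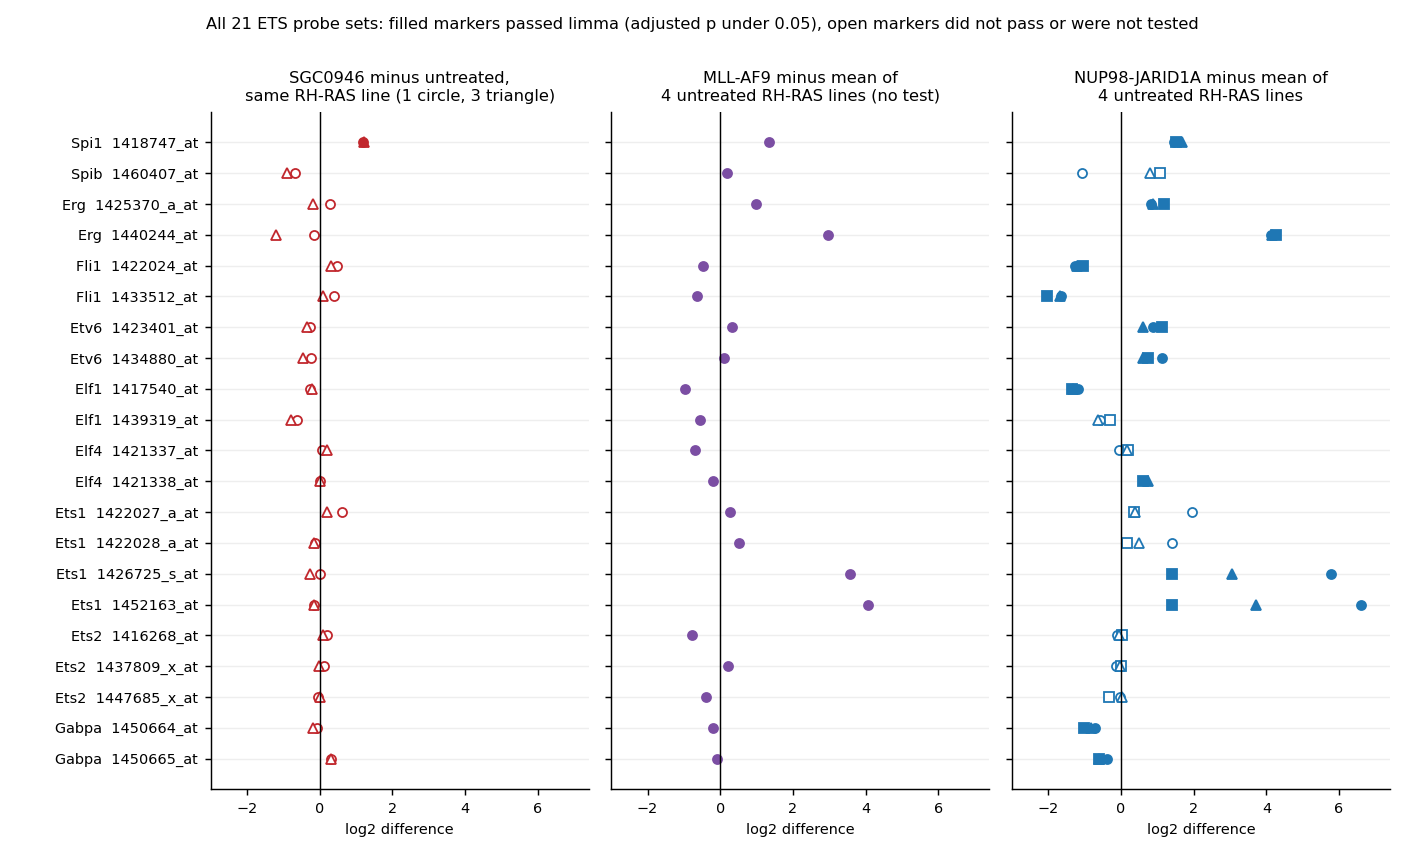
Difference on the log2 scale (horizontal axis) of each of the 21 probe sets in 3 panels, SGC0946 minus untreated RH-RAS, MLL-AF9 minus untreated RH-RAS and NUP98-JARID1A minus untreated RH-RAS, with 1 mark per array. In the first and last panels filled marks passed limma's threshold and open ones did not pass or were not tested, and the MLL-AF9 panel has no test. Only Spi1 is filled in the SGC0946 panel, and for NUP98-JARID1A the marks of Erg 1440244_at lie close together near 4.18 while those of Ets1 1452163_at spread widely.

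Promoters of 4 members that differed in NUP98-JARID1A lines are shown, as the most upstream RefSeq window of each (GRCm38.p6, 250 bases before to 50 after the gene start), because they include both higher genes (Erg and Etv6) and lower genes (Elf1 and Gabpa). Capitals mark GGAAG, the GGAA core followed by G, on either strand, so CTTCC is its reverse complement. A GGAA core followed by another base is not marked.
Erg promoter: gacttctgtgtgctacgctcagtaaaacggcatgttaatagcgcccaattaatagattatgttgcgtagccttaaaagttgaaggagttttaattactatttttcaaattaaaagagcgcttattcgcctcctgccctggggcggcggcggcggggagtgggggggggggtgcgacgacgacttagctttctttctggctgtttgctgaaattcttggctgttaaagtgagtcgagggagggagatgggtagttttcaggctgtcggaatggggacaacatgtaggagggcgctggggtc
Etv6 promoter: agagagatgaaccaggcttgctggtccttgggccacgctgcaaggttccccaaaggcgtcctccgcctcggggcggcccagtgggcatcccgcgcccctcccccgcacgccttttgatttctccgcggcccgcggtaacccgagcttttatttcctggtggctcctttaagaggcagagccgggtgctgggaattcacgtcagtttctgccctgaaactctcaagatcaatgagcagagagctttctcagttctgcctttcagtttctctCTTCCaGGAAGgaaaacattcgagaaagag
Elf1 promoter: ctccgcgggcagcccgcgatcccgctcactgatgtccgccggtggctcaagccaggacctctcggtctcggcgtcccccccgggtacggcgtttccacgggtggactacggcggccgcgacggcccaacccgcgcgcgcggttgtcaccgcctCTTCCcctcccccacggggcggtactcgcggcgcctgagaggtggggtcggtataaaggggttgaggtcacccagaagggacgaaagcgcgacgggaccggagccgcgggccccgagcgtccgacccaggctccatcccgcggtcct
Gabpa promoter: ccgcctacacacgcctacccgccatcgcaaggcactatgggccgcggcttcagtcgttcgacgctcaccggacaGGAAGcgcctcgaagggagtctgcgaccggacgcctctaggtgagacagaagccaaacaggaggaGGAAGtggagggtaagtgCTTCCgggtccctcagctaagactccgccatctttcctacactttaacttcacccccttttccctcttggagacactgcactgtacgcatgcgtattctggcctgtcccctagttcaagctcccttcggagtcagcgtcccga
The Erg window lies at chr16:95586544-95586843 on the minus strand, Etv6 at chr6:134035450-134035749 on the plus strand, Elf1 at chr14:79480944-79481243 on the plus strand and Gabpa at chr16:84834874-84835173 on the plus strand. In these windows Erg held 0 matches to GGAAG, Etv6 2, Elf1 1 and Gabpa 3, of which 1 lies in the longer motif CCGGAAG and 1 in GAGGAAG. The Erg window shown does hold the GGAA core, as the unmarked cggaat. Erg windows not shown, at chr16:95530316-95530615 and chr16:95459299-95459598, held 1 GGAAG each. The 5-base core is present in 71.4% of all 32851 windows, CCGGAAG in 8.86% and GAGGAAG in 13.6%, so a match is a common feature of promoters. Of 11 windows of 7 members, 8 held GGAAG. Spi1, Fli1 and Ets1 are named only.

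Factors that bind DNA beside ETS members, and proteins that join such complexes, were read as a list. Of 14 partners tested, SGC0946 raised 3 and lowered 1, with a median change of 0.34 against 0.02 over all genes, and 10 did not pass, where 6.84% of all genes rose and 5.13% fell. The factor Jun rose by 2.15 ± 0.30 (SE; limma, adjusted p = 0.00738), as did Irf8, a PU.1 partner in monocytes, by 1.80 ± 0.33 (SE; limma, adjusted p = 0.016), while Myb, a factor of immature cells, fell by 1.03 ± 0.11 (SE; limma, adjusted p = 0.0038). Lmo2, a bridging protein of blood factors, rose by 1.30, and Runx1 and Irf4, which did not pass, gave 0.89 and 1.23. In NUP98-JARID1A lines 6 of 14 were higher and 0 lower, with 0 lower also at an unadjusted p under 0.05, and the median was 0.51 against 0.10 over all genes. Over all genes 32.5% were higher and 18.5% lower, 51.0% in all, so the share of partners called was not above the background. Cebpa, the granulocyte factor, was 2.37 ± 0.27 higher (SE), and Runx1, which joins ETS factors on many blood enhancers, 1.84 ± 0.21 (SE; limma, adjusted p = 0.00042). Gabpb1, the subunit that binds Gabpa, was 0.75 ± 0.19 higher (SE; limma, adjusted p = 0.0142), while Gabpa was lower.

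The other ETS genes were read the same way. Of 11 tested, 1 rose with SGC0946, the repressor Etv3, by 0.60 ± 0.15 (SE; limma, adjusted p = 0.0435), and 0 fell, with 2 lower at an unadjusted p under 0.05, a share near the 12.0% of all genes called. In NUP98-JARID1A lines 6 of 11 were lower and 0 higher by limma (1 higher at an unadjusted p under 0.05), with a median of −0.35 against 0.10 over all genes, of which 18.5% were lower and 32.5% higher. Etv5, induced by receptor tyrosine kinase signalling, differed most, by −1.68 ± 0.18 (SE; limma, adjusted p = 3e-04), followed by Elk3 at −1.19 and Etv3 at −0.92. Etv4, with −1.10 ± 0.36 after SGC0946 (SE; limma, adjusted p = 0.0978), did not pass there.

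Genes that PU.1 activates in myeloid cells were read beside Spi1. SGC0946 raised 15 of 21 and lowered 0 (0 at an unadjusted p under 0.05), with a median of 2.02 against 0.02 over all genes, where 6.84% of all genes rose and 5.13% fell, and the list was drawn with earlier results of these data known. Of the 15, Mrc1 and Adgre1 lay below the array median on both untreated arrays of the contrast. Mrc1 passed the filter on low values only through the treated arrays, so it had to differ and is not counted as support. The receptor Csf1r rose by 4.90 ± 0.67 (SE). Mrc1, a mannose receptor of macrophages, read 9.44 and 9.77 on treated arrays, against 4.51 and 4.50 on the untreated arrays of the same lines, while Tlr4, at 1.86 (limma, adjusted p = 0.0735), and Btk, at 0.02, did not pass. In NUP98-JARID1A lines 15 were higher and 1 lower, Fcgr1, by −1.16 ± 0.40 (SE; limma, adjusted p = 0.0446), with a median of 1.86, where 32.5% of all genes were higher and 18.5% lower. The lysozyme gene Lyz2 differed by 4.76 and the granulocyte receptor Csf3r by 3.46. The macrophage receptor Adgre1 was among the 15, and since it lay below the array median on all 4 untreated arrays no exact difference is given. Mrc1 differed by 0.03 there (limma, adjusted p = 0.968). The median change of the 21 targets from the untreated mean was 1.80 and 1.82 on treated arrays, 1.02 on MLL-AF9, 1.39, 1.60 and 2.55 on NUP98-JARID1A arrays and −0.09, −0.16, −0.15 and 0.61 on untreated arrays. Untreated line 4 thus had a higher target median than lines 1 to 3, while its Spi1 reading lay 0.12 above theirs. All 6 macrophage markers are in this list, and their part in the result was not tested.

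**Figure D4:**
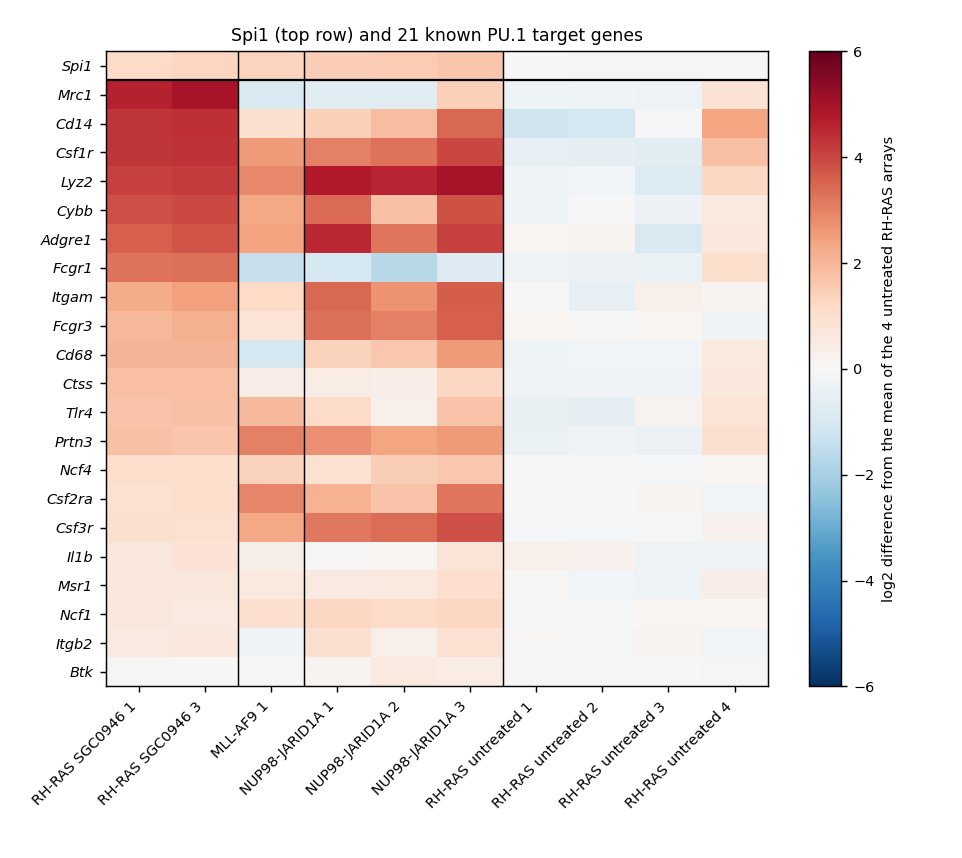
Heat map of log2 intensity minus the mean of the 4 untreated RH-RAS lines for Spi1 and 21 PU.1 target genes, with arrays in columns (SGC0946-treated, MLL-AF9, NUP98-JARID1A and untreated RH-RAS from left to right). Spi1 is raised on all treated, MLL-AF9 and NUP98-JARID1A arrays, whereas Mrc1 is raised on the treated arrays and below 0 on NUP98-JARID1A lines 1 and 2.

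Genes most like each member were found by the smallest root mean square difference between centred log2 profiles over the 10 arrays. For Spi1 they were Naglu, Irak2 and Zbtb7b, at 0.123, 0.147 and 0.163. Erg was nearest to Lrp12, 2610524H06Rik and Nfe2, at 0.362, 0.376 and 0.445, and Fli1 to Rad21, Lrrc58 and Sirt1, at 0.137, 0.152 and 0.155. Etv6 was nearest to Chd1l, Nr2c2ap and Exosc2 (the nearest at 0.122), and Elf1 to Prps1l3, Cenpc1 and Kdm1b (0.088). Gabpa was nearest to Smim15, Hnrnpr and Khdrbs1 (0.057), Ets1 to Isoc2b, Ptprv and 2810001G20Rik (0.198) and Spib to 2610005L07Rik, Zbtb4 and AI429214 (0.29). The Ets1 search used 1422027_a_at, which was too dim to test, and not 1452163_at or 1426725_s_at. Elf4 and Ets2 ranged over less than 1 and were not searched.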

How the data were processed

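RNA was measured on 10 arrays (2 treated RH-RAS, 1 MLL-AF9, 3 NUP98-JARID1A, 4 untreated RH-RAS). The deposited values are log2 intensities that the authors made with RMA, per the submitters' processing notes; no version is named. The annotation gave 1 symbol to 34958 probe sets, several to 932, and did not list 9211. No further normalisation was applied. The brightest probe set on average stood for a gene, which was tested if above the array median on at least 2 arrays; probe sets were also tested singly. Python 3.11.15 and limma 3.58.1 in R 4.3.3 (lmFit, eBayes, Benjamini-Hochberg over all features, threshold 0.05) gave treated minus untreated lines 1 and 3 from all 10 arrays, and NUP98-JARID1A minus untreated lines from 8 arrays. In the first fit the other replicated groups entered the spread; in the second MLL-AF9, a single array, added nothing to it. MLL-AF9 has 1 array and no test. The fits were tested on simulated data. Treated and untreated arrays of a number are the same line (their deviations correlated at 0.292), so a replicate block was tried. Other alternatives were the filter, centring, probe set choice, variance model and left-out arrays. All members were named, with the largest changes of each list, and genes with the nearest profile. Members and lists were chosen with earlier results of these data known. Sequences are RefSeq promoter windows of GRCm38.p6.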

Additional observations from a re-analysis of the deposited data

Results flagged for a closer look

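Among 21 probe sets tested over the 4 untreated RH-RAS lines, 2 had line 4 far from the other lines by Dixon's test, which flags about 1 in 20 groups by chance. Spib probe set 1460407_at read 5.38 in untreated RH-RAS line 4, below 6.25, 6.42 and 6.28 in lines 1 to 3. Ets1 probe set 1426725_s_at read 2.79 in the same line, below 3.20, 3.15 and 3.13, all at the bottom of the intensity range.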

How the results depend on the processing

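The SGC0946 call of Spi1 and the 7 member calls in NUP98-JARID1A lines held under every alternative run, except that Spi1 was lost without treated line 3. The count of genes called with SGC0946, 1435, was 847 with the replicate block, which kept Spi1, and 2746 with the 6 RH-RAS arrays alone, where 2 members passed instead of 1; leaving out single arrays gave 28 to 1483 genes, 0 to 1 members and 0 to 2 probe sets. A block on NUP98-JARID1A and RH-RAS numbers, which are only names, gave 4938 genes against 6112 and the same 7 members. With a threshold of 2 on the log2 scale, MLL-AF9 stood apart in 1 member. Small SGC0946 differences changed sign: Gabpa gave 0.0924 with the mean of its probe sets, and Ets2 1447685_x_at 0.0497 after centring arrays and 0.0415 with all 4 untreated lines, the cause not tested. Leaving out arrays gave for SGC0946 −0.0737 to 0.0609 for Ets2 1447685_x_at, −0.0591 to 0.0758 for Elf4, −0.294 to 0.0562 for Ets1 1426725_s_at, −0.318 to 0.00913 for 1452163_at, −0.00726 to 0.501 for Fli1 and −0.144 to 0.257 for Erg 1425370_a_at, and for NUP98-JARID1A −0.145 to 0.936 for Spib and −0.173 to 0.00800 for Ets2 1447685_x_at. Array number limits the precision.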
